A study of Rattus norvegicus with 6 samples.

Results

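The brain endothelial and mural cell genes are 35 genes of the blood vessel wall, taken for their roles there. They comprise 23 genes of the endothelium and the ligands of its receptors, among them 5 junction genes and 6 transporters of the blood-brain barrier, and 12 genes of pericytes, their growth factor Pdgfb and smooth muscle, among them 6 contractile genes. Every non-control probe whose transcript belonged to one of the 35 genes was kept, which gave 39 probes for 34 genes. Of these, 34 probes for 32 genes had signal in at least 1 group of rats and were tested, beside 20659 tested probes and 11033 tested genes in all. Vwf was not analysed here. Sox17, an endothelial transcription factor, was well above background on 0 of 6 arrays, and Cnn1, a smooth muscle calponin, on 2 of 3 arrays in each group, so neither was tested.

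RNA came from the brain of 6 male rats of Wistar background, all 15 weeks old and kept sedentary. Of these, 3 were of the SPORTS genotype, a mutant line that runs much in a wheel of its own accord, and 3 were wildtype. The labels give no brain region, do not name the mutation that defines the line, and do not say how the wildtype rats were related to it. Each rat had 1 single-colour Agilent array, so the spread between arrays is a spread between rats, and precision is limited by there being 3 arrays per group.

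Brain capillaries are lined by endothelial cells that are sealed to each other by tight junctions and carry transporters, which together form the blood-brain barrier. Pericytes cover these capillaries and are recruited by platelet-derived growth factor from the endothelium, while arterioles carry smooth muscle whose actin, myosin and myosin light chain kinase produce contraction. Angiopoietins are ligands of the endothelial receptor Tek, through which mural cells and endothelium signal to each other.

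Promoter sequences from RefSeq on the GRCr8 build were on hand for 20 of the 35 genes, each a window from 250 bases before to 50 bases after the gene start. The window was searched on both strands for AGGAAG, a string that ETS factors can bind. This family includes the endothelial factor Ets1. Among the 20 windows 7 held it (35%), against 34.5% of all 33469 windows, so its share was that of promoters at large. The smooth muscle CArG box was counted only in the strict form CCWWWWWWGG, with W for A or T, so looser forms were not counted. It was in 0 of 20 windows and in 1.64% of all, and TATAAA was in 0 of 20 and in 14.2% of all. These counts describe letters in the windows and not binding. The 250 bases before the start are printed for the 3 genes that were higher in SPORTS and held the motif, and for Rgs5, which was lower in SPORTS and did not. The 20 genes included 6 called higher, of which these 3 held the motif. Abcg2, Emcn, Eng and Slco1a4 also held it and were not called. Whether the motif goes with the direction of change was not tested. For the ETS motif only the exact string AGGAAG was counted. Related strings with the letters GGAA, such as cggaag near the left end of the Rgs5 sequence, were neither counted nor marked. Capitals mark the motif, which reads CTTCCT on the printed strand and begins at base -120 in Mylk, -54 in Nos3 and -61 in Tie1, counted from the start.
Mylk, chr11:79498575-79498824, minus strand: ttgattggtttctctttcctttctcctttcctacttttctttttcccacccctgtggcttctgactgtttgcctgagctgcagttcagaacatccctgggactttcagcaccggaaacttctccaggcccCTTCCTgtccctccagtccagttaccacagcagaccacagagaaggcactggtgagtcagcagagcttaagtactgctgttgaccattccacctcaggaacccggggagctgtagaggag
Nos3, chr4:11706582-11706831, minus strand: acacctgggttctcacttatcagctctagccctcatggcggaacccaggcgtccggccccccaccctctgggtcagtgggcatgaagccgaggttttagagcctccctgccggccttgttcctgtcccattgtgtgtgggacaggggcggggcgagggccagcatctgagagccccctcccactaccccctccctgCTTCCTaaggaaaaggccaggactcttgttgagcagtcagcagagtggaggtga
Tie1, chr5:137304982-137305231, minus strand: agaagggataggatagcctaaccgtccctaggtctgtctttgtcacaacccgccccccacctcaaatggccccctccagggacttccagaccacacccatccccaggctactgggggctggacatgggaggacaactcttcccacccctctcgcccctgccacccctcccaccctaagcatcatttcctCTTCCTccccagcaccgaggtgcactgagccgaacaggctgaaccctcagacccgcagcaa
Rgs5, chr13:84380827-84381076, plus strand: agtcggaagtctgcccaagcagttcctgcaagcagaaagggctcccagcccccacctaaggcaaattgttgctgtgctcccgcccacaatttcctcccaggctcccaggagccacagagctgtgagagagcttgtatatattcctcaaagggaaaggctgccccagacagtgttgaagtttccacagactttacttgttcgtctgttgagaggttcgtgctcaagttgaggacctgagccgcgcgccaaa

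Signals are given as log2 of the processed intensity minus the array's 75th percentile, so a probe at 0 is as bright as that percentile. A difference is the SPORTS mean minus the wild type mean on this log2 scale, given with its standard error. Signals of different genes are not compared, because each probe has its own brightness. A gene was called higher or lower when its p from limma, adjusted by the Benjamini-Hochberg method over all 20659 probes, was under 0.05. In RNA of whole tissue, fewer vessel cells and less RNA per cell cannot be told apart. The arrays lay on 1 slide, with wild type 1 and 2 in row 1 and wild type 3 and all SPORTS arrays in row 2, and a second fit took the row as a block. In that fit the difference is the one between SPORTS and the single array of wild type 3.

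Of the 32 tested vascular genes, 9 were higher in SPORTS (28.1%), 1 was lower (3.12%) and 22 were not called. Over all 11033 tested genes, 12.9% were called higher and 11.4% lower, 24.3% in all. Counted by probe, 10 of 34 were called, against 21.1% of all tested probes. The 9 that rose were Esam and Pecam1 of the endothelial junctions, the receptor Tie1, Nos3 and Itm2a of the endothelium, Anpep of pericytes, and Acta2, Myh11 and Mylk of smooth muscle, by 1.15-fold to 1.46-fold. The gene that fell was Rgs5, a pericyte regulator of G protein signalling, by 1.32-fold. The 32 differences had a median of 0.16, with 23 of 32 above 0 (71.9%), against a median of 0.007 and 51.8% above 0 for all genes. SPORTS lay above wild type on every array for 15 of the 32 genes and below it for 2, where 24.8% of all genes lay above and 22.3% below (47% either way). With the slide row as a block, 4 of the 32 were called higher and 0 lower, against 4.03% and 4.31% of all genes (8.34% in all). The count of 10 called genes ran from 5 to 11 when each array was left out in turn, with 5 called without wild type 2, 7 without wild type 3, 5 without SPORTS 1, 6 without SPORTS 2 and 5 without SPORTS 3. It was 6 with no filter on dim probes.

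**Figure D1:**
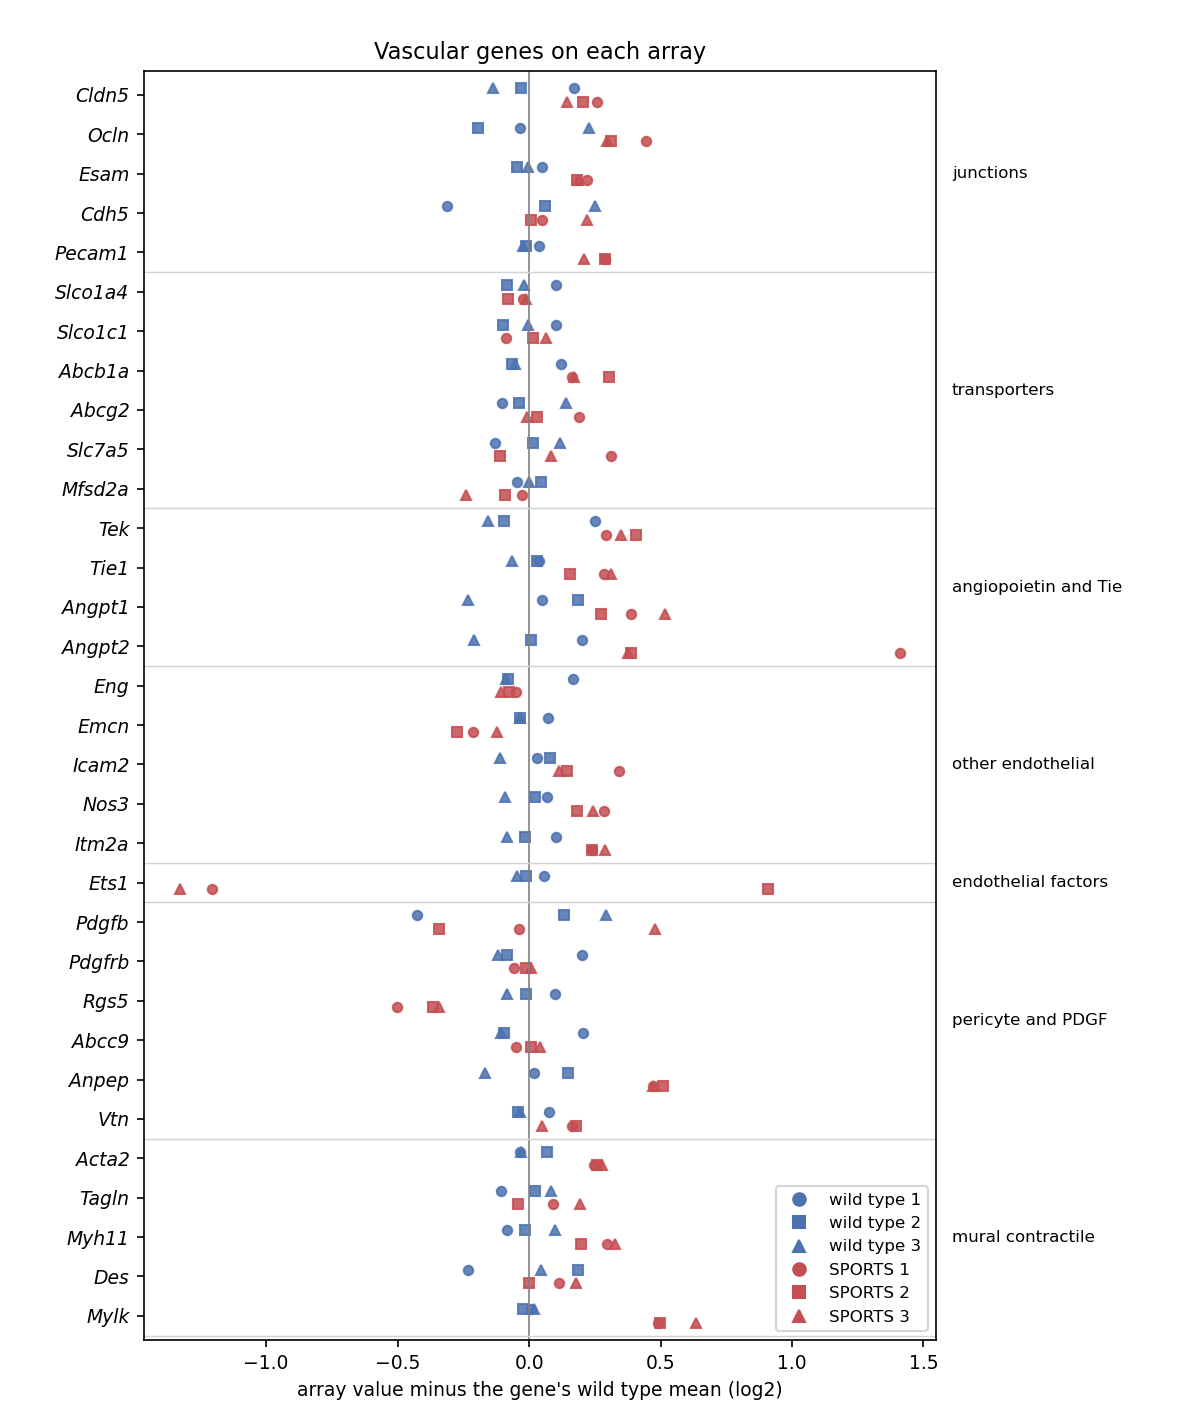
Signal of each tested vascular gene on each of the 6 arrays, as the log2 value minus the gene's wild type mean, grouped by role; blue points are wild type and red points SPORTS, with 1 marker shape per replicate number, which only names a rat. For Mylk, Anpep and Acta2 the 3 SPORTS points lie close together to the right of all wild type points, for Rgs5 they lie to the left, and for Ets1 SPORTS 2 lies far from the other SPORTS arrays.

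Among the 5 junction genes, Pecam1 and Esam rose in SPORTS and 3 genes were not called, where 12.9% of all genes were called higher. Pecam1, an adhesion molecule of endothelial cell contacts, measured -1.20, -1.25 and -1.26 in wild type 1 to 3 and -0.95, -0.95 and -1.03 in SPORTS 1 to 3. The SPORTS arrays all lay above the wild type arrays, by 0.26 ± 0.04 (SE, 3 arrays per group; 1.20-fold; adjusted p = 0.00897 with limma). Its call held whichever array was left out, and it missed the threshold in the fit blocked by slide row (difference 0.29, adjusted p = 0.0602 with limma). Esam, another endothelial adhesion molecule, measured -1.62, -1.71 and -1.67 in wild type and -1.45, -1.49 and -1.48 in SPORTS. The groups did not overlap and the spread within each was small, with a difference of 0.20 ± 0.04 (SE; 1.15-fold; adjusted p = 0.0196 with limma). The call of Esam was lost without wild type 2, wild type 3 or any 1 of the SPORTS arrays, where its adjusted p was 0.0543 to 0.0696, and with the row as a block it was 0.120.

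Claudin 5, the main sealing protein of brain endothelial tight junctions (Cldn5), measured 1.16, 0.95 and 0.85 in wild type and 1.24, 1.19 and 1.13 in SPORTS. Wild type 1 lay within the SPORTS range, and the difference of 0.20 ± 0.09 was not called (95% confidence interval -0.01 to 0.41, adjusted p = 0.156 with limma). Without wild type 1 it was 0.29 and passed (adjusted p = 0.0395 with limma); over all alternatives its adjusted p ran from 0.0395 to 0.321. Occludin (Ocln), a membrane protein of tight junctions, measured -0.78, -0.93 and -0.51 in wild type and -0.30, -0.43 and -0.44 in SPORTS. Its groups did not overlap, but wild type 3 lay close to the SPORTS arrays, and the difference of 0.35 ± 0.11 was not called (adjusted p = 0.0815 with limma). Without wild type 3 the difference of Ocln was 0.47 and was called (adjusted p = 0.0266 with limma), and with the row as a block it was 0.12. Cdh5, the cadherin of endothelial contacts, measured -3.52, -3.15 and -2.96 in wild type and -3.16, -3.21 and -2.99 in SPORTS. Its wild type arrays spanned the SPORTS arrays (difference 0.09 ± 0.15, 95% confidence interval -0.28 to 0.46), and with the row as a block the sign turned, at -0.16.

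Of the 6 barrier transporters 0 were called with limma, against 24.3% of all genes. Only 1, Abcb1a, had an unadjusted p under 0.05 with limma. The differences of 3 transporters were above 0 and those of 3 below. Slco1c1, which carries thyroxine into the brain, measured 1.79, 1.59 and 1.68 in wild type and 1.60, 1.70 and 1.75 in SPORTS. Slco1a4, an organic anion transporter, measured 1.19, 1.003 and 1.07 in wild type and 1.06, 1.01 and 1.08 in SPORTS. In both genes the ranges of the groups overlapped, and the 95% confidence intervals of the differences were -0.17 to 0.16 for Slco1c1 and -0.18 to 0.10 for Slco1a4. Mfsd2a, which carries lysophospholipids with docosahexaenoic acid, measured -0.81, -0.72 and -0.76 in wild type and -0.79, -0.85 and -1.002 in SPORTS (difference -0.12 ± 0.06, 95% confidence interval -0.28 to 0.04). The groups overlapped through SPORTS 1 alone. Abcg2, an efflux pump, differed by 0.07 (95% confidence interval -0.13 to 0.28), and Slc7a5, which carries large neutral amino acids, by 0.09 (-0.20 to 0.39).

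The P-glycoprotein gene Abcb1a, the main drug efflux pump of the barrier, was the 1 of 6 transporters whose groups did not overlap. Of all genes, 24.8% had SPORTS above wild type without overlap. It measured -4.39, -4.58 and -4.57 in wild type and -4.35, -4.21 and -4.34 in SPORTS. All SPORTS arrays lay above all wild type arrays, yet wild type 1 lay next to them, and the difference of 0.21 ± 0.07 was not called (adjusted p = 0.0845 with limma). Without wild type 1 it was 0.27 and was called (adjusted p = 0.0453 with limma), with a range of 0.0453 to 0.256 over all alternatives.

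The angiopoietin and Tie genes had a median difference of 0.37 over 4 genes, the largest of the role groups with more than 1 tested gene. Under normexp background correction the differences were 0.16 for Tek, 0.17 for Tie1, 0.20 for Angpt1 and 0.46 for Angpt2. The median of the mural contractile genes was then 0.21, so this rank depended on the treatment of background. All 4 had non-overlapping groups with SPORTS above, where 24.8% of all genes did. Only 1 of them, Tie1, was called, where 12.9% of all genes were called higher. Tie1, an endothelial receptor that modulates Tek, measured -3.36, -3.37 and -3.46 in wild type and -3.11, -3.25 and -3.09 in SPORTS. It rose by 0.25 ± 0.06 (SE; 1.19-fold; adjusted p = 0.0305 with limma). The call was lost without any 1 of the wild type arrays, SPORTS 1 or SPORTS 3 (adjusted p 0.0652 to 0.0939), under quantile normalisation (0.0542) and with the row as a block (difference 0.32, adjusted p = 0.0835 with limma).

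Tek, the angiopoietin receptor, measured -4.82, -5.17 and -5.23 in wild type and -4.78, -4.67 and -4.72 in SPORTS. Wild type 1 lay just under the SPORTS arrays and the other wild type arrays well below them, and the difference of 0.35 ± 0.11 was not called (adjusted p = 0.082 with limma). Without wild type 1 it was 0.47 and was called (adjusted p = 0.00939 with limma). Angpt1, the activating ligand made by mural cells, measured -4.38, -4.24 and -4.66 in wild type and -4.04, -4.15 and -3.91 in SPORTS. The difference of 0.39 ± 0.12 was not called (1.31-fold; adjusted p = 0.072 with limma), while with the row as a block it was 0.63 and was called (adjusted p = 0.0435 with limma). Angpt2, the ligand that endothelial cells release and that can oppose Angpt1, measured -4.10, -4.30 and -4.51 in wild type and -2.89, -3.92 and -3.93 in SPORTS. SPORTS 1 lay far above the other SPORTS arrays, which makes the error wide: the difference was 0.73 ± 0.30 (adjusted p = 0.152 with limma), and without SPORTS 1 it was 0.38 (adjusted p = 0.119 with limma).

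Among 5 other endothelial genes, Nos3 and Itm2a rose, where 12.9% of all genes were called higher. Nos3, which makes the vasodilator nitric oxide, measured -2.87, -2.91 and -3.03 in wild type and -2.65, -2.75 and -2.69 in SPORTS. It was 0.24 ± 0.06 higher (SE; 1.18-fold; adjusted p = 0.0326 with limma), and it was also called with the row as a block (difference 0.33, adjusted p = 0.0466 with limma). Its probe is printed at 10 spots per array, and 5 spot values over all arrays were outliers and were left out. The call of Nos3 was lost, at adjusted p 0.0718 to 0.0969, without wild type 2, wild type 3 or any 1 of the SPORTS arrays, under quantile normalisation (0.0759) and under a median shift (0.0610). Itm2a, a membrane protein enriched in brain endothelium, measured 0.88, 0.76 and 0.69 in wild type and 1.02, 1.02 and 1.07 in SPORTS. The SPORTS arrays lay close together above all wild type arrays (difference 0.26 ± 0.06, 1.19-fold, adjusted p = 0.0271 with limma), and without wild type 2, wild type 3 or any 1 of the SPORTS arrays the adjusted p was 0.0690 to 0.0897. With the row as a block Itm2a also missed the threshold (difference 0.34, adjusted p = 0.0515 with limma).

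The other 3 of these genes were not called. Emcn, a sialomucin of veins and capillaries, measured -2.42, -2.53 and -2.52 in wild type and -2.70, -2.76 and -2.61 in SPORTS. It was the only endothelial gene with all SPORTS arrays below all wild type arrays (difference -0.20 ± 0.06, adjusted p = 0.0529 with limma). It passed the threshold in 7 of 18 alternatives, over which its adjusted p ran from 0.0370 to 0.296. Icam2, an endothelial adhesion molecule, measured -3.41, -3.36 and -3.55 in wild type and -3.10, -3.30 and -3.33 in SPORTS, without overlap but also without a call (difference 0.20 ± 0.08, adjusted p = 0.147 with limma). Eng, a co-receptor of the TGF-beta family, differed by -0.08 ± 0.08 (95% confidence interval -0.27 to 0.11), with wild type 1 as the highest array at -2.26 and the others between -2.53 and -2.48.

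Ets1, the endothelial transcription factor of the ETS family, rests on 2 spots per array that disagreed in SPORTS. The wild type spots had processed intensities between 44.68 and 53.02, the SPORTS 1 spots 19.89 and 22.82, the SPORTS 3 spots 12.41 and 29.08, and the SPORTS 2 spots 24.72 and 344.2. Apart from the single bright spot of SPORTS 2, all SPORTS spots were dimmer than all wild type spots. By the rule for detection the probe was not well above background on any SPORTS array, and the difference was not called (-0.54 ± 0.60, adjusted p = 0.579 with limma). Without SPORTS 2 the difference was -1.27, but the remaining SPORTS arrays did not pass the rule for detection, so it is not read as a fall. Under normexp background correction the difference over all arrays was 0.03, so the value depends on 1 spot and on the treatment of background.

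The 6 genes of pericytes and platelet-derived growth factor signalling moved in different directions, with a median difference of 0.02. Rgs5 measured -0.88, -0.99 and -1.06 in wild type and -1.48, -1.34 and -1.31 in SPORTS. All SPORTS arrays lay below all wild type arrays and Rgs5 fell by 0.40 ± 0.07 on the log2 scale (1.32-fold; adjusted p = 0.0114 with limma). The call held whichever array was left out, and with the row as a block it missed the threshold (difference -0.32, adjusted p = 0.107 with limma). Anpep, an aminopeptidase on the surface of pericytes, measured -4.51, -4.38 and -4.70 in wild type and -4.06, -4.02 and -4.06 in SPORTS. The SPORTS arrays were nearly equal and all higher, by 0.48 ± 0.08 (1.40-fold; adjusted p = 0.0122 with limma). Under normexp background correction the difference was 0.26 and was called, so its size depended on the treatment of background. The call of Anpep held with the row as a block (difference 0.65, adjusted p = 0.0123 with limma) and was lost in 1 of 18 alternatives, without SPORTS 2 (adjusted p = 0.0574 with limma).

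The other pericyte genes were not called. Pdgfrb, the receptor that pericytes depend on, measured -1.72, -2.00 and -2.04 in wild type and -1.98, -1.93 and -1.91 in SPORTS, with a 95% confidence interval of the difference of -0.24 to 0.20. Abcc9, a subunit of the pericyte potassium channel, measured -2.96, -3.26 and -3.27 in wild type and -3.22, -3.16 and -3.12 in SPORTS on the 1 of its 3 probes that was above background, with an interval of -0.23 to 0.23. In both genes wild type 1 was the highest array and the SPORTS arrays lay between the wild type arrays. Pdgfb, the endothelial ligand of Pdgfrb, was dim and spread widely, between -5.84 and -5.12 in wild type and between -5.75 and -4.93 in SPORTS, and its second probe was not tested. Vtn, an extracellular matrix protein made by pericytes, measured 0.34, 0.23 and 0.23 in wild type and 0.43, 0.45 and 0.32 in SPORTS, a difference of 0.13 ± 0.05 that was not called (adjusted p = 0.153 with limma).

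Among 5 tested mural contractile genes, Mylk, Acta2 and Myh11 rose and Tagln and Des were not called. Over all genes 12.9% were called higher and 11.4% lower. Mylk, the kinase that starts smooth muscle contraction by phosphorylating myosin light chain, measured -0.35, -0.38 and -0.34 in wild type and 0.13, 0.14 and 0.28 in SPORTS. This was the largest rise among the vascular genes that were called, at 0.54 ± 0.05 (1.46-fold; adjusted p = 0.00184 with limma). It held whichever array was left out and with the row as a block (difference 0.52, adjusted p = 0.0269 with limma), and it missed the threshold in 1 of 18 alternatives, when slide row 2 was fitted alone (adjusted p = 0.0594 with limma). A second, dimmer Mylk probe also had all SPORTS arrays above all wild type arrays, with a difference of 0.41 ± 0.12 that was not called (adjusted p = 0.0580 with limma).

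Acta2, the smooth muscle actin, measured -2.09, -1.99 and -2.08 in wild type and -1.81, -1.80 and -1.78 in SPORTS. The SPORTS arrays had an SD of only 0.016 (n = 3) and were all higher, by 0.26 ± 0.04 (1.20-fold; adjusted p = 0.00982 with limma). The call of Acta2 held whichever array was left out and was missed with the row as a block (difference 0.29, adjusted p = 0.0581 with limma). Myh11, the smooth muscle myosin heavy chain, measured -1.32, -1.25 and -1.14 in wild type and -0.94, -1.04 and -0.91 in SPORTS, a rise of 0.27 ± 0.06 (1.21-fold; adjusted p = 0.0308 with limma). This call was lost, at adjusted p 0.0584 to 0.0978, without wild type 1, wild type 2 or any 1 of the SPORTS arrays, in the mean of its probes (0.0721) and with the row as a block (difference 0.17, adjusted p = 0.226 with limma). Its second probe gave 0.25 ± 0.12 and was not called (adjusted p = 0.182 with limma).

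Tagln, an actin-binding protein of smooth muscle, measured -0.72, -0.59 and -0.53 in wild type and -0.53, -0.66 and -0.42 in SPORTS, with overlapping groups (difference 0.08 ± 0.08, 95% confidence interval -0.12 to 0.28). Des, the intermediate filament of mural cells, measured -3.15, -2.73 and -2.87 in wild type and -2.80, -2.91 and -2.73 in SPORTS, and the SPORTS arrays lay within the wild type range (difference 0.10 ± 0.11). The untested Cnn1 lay between -7.79 and -4.50 in wild type and between -5.66 and -5.14 in SPORTS.

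**Figure D2:**
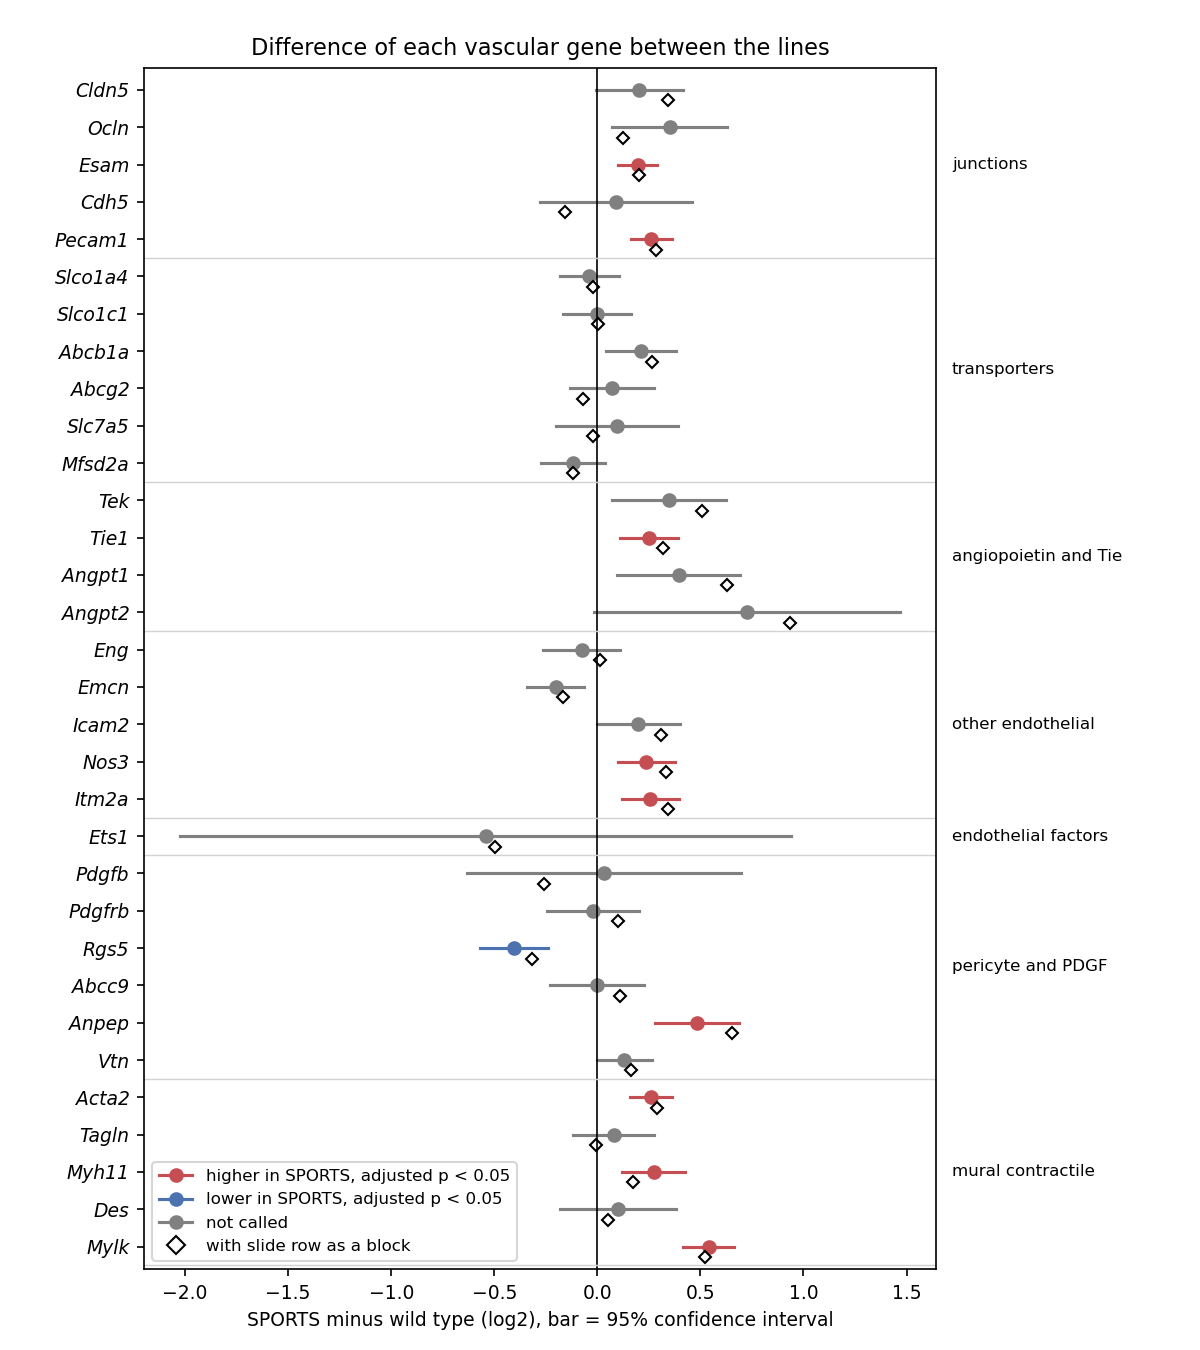
Difference SPORTS minus wild type (log2) of each tested vascular gene with its 95% confidence interval from limma; red and blue mark genes with an adjusted p under 0.05, gray the rest, and open diamonds give the difference with the slide row as a block. Mylk (0.54) and Anpep (0.48) lie farthest right among the called genes and Rgs5 (-0.40) is the called gene to the left; for Ocln and Myh11 the diamond lies nearer to 0 and for Tek and Angpt1 farther from it.

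The barrier genes and the mural contractile genes were set side by side. Of all genes, 12.9% were called higher and 11.4% lower. Over the 11 junction and transporter genes the median difference was 0.09 (1.07-fold), with 2 called higher and 0 lower; over the 5 contractile genes it was 0.26 (1.20-fold), with 3 called higher and 0 lower. The differences of the barrier genes ran from -0.12 to 0.35 and those of the contractile genes from 0.08 to 0.54, so the ranges overlapped. With the slide row as a block the medians were 0.0016 and 0.17. Leaving out 1 array moved the barrier median between 0.049, without wild type 1, and 0.17, without SPORTS 2, and the contractile median between 0.13, without wild type 1, and 0.29.

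The same was read from each array. The median signal of the barrier genes minus that of the contractile genes, whose level has no meaning of its own across different probes, was 0.363, 0.317 and 0.374 in wild type and 0.148, 0.184 and -0.092 in SPORTS. Every SPORTS array lay below every wild type array, with a change of -0.27 that ran from -0.31 to -0.19 when arrays were left out and was -0.10 under normexp background correction. A median over genes of different brightness follows its middle gene. Among the contractile genes this was Myh11 on all 6 arrays, while the barrier median changed by only 0.0016. The change of -0.27 therefore reflects the rise of Myh11 and not of the 5 contractile genes as a set. The mean deviation from each gene's own mean over the 6 arrays was taken as well, a measure added after seeing the data. On that measure the barrier genes were 0.12 and the contractile genes 0.25 higher in SPORTS. Barrier minus contractile was then 0.152, -0.023 and 0.066 in wild type and -0.020, -0.020 and -0.155 in SPORTS. These values overlapped, and the change of -0.13 was smaller than the range of the wild type arrays. The lower ratio of barrier to contractile signal in SPORTS was therefore seen on every array with the summary that followed Myh11 and not with the other. No test was made because the genes were chosen with earlier results known.

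**Figure D3:**
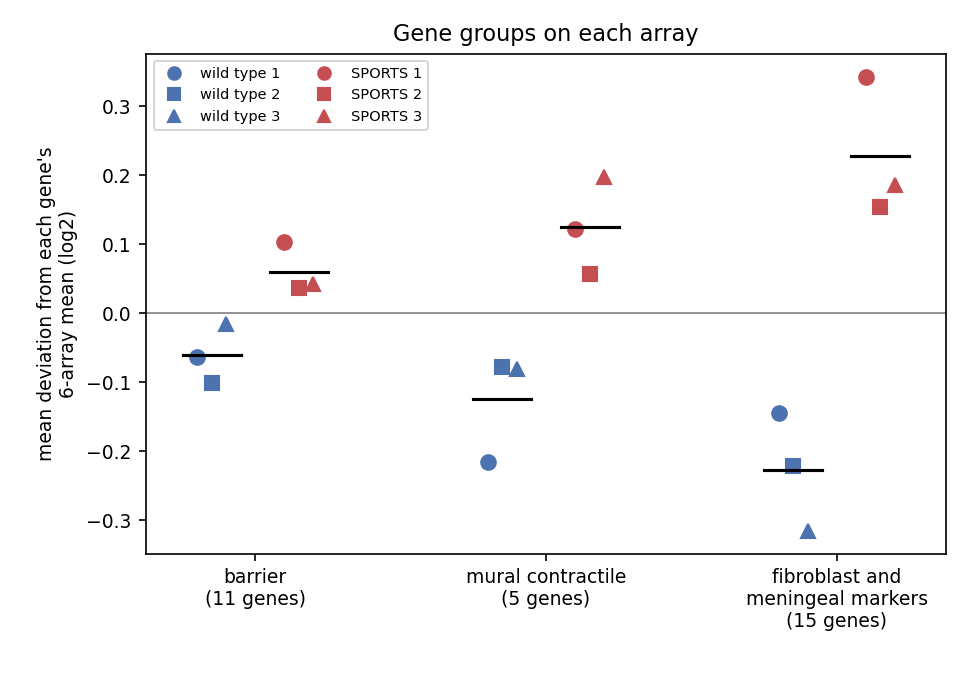
Mean deviation (log2) of the genes of a group from each gene's own mean over the 6 arrays, for 11 barrier genes, 5 mural contractile genes and 15 markers of fibroblasts and meninges; 1 point per array, blue for wild type and red for SPORTS, with black lines at the group means. The SPORTS arrays lie above the wild type arrays in each of the 3 groups, with differences between the group means of 0.12, 0.25 and 0.45.

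Other genes of the vessel wall came from 5 further lists with 148 entries, chosen by role. Of these, 102 were tested: 19 rose, 7 fell and 76 were not called, with a median difference of 0.07. The 26 calls are a share close to the 24.3% called over all genes. With the slide row as a block 7 were called higher and 5 lower, where 4.03% and 4.31% of all genes were. Without wild type 2, wild type 3, SPORTS 2 or SPORTS 3 the 26 calls were 16, 15, 16 and 16. Over the 26 genes the adjusted p with limma ran from 0.00228 for Abcc4 and Actn1 to 0.0498 for Tgfbr2.

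In the list of tight junction and caveolar genes, 4 of 18 tested genes rose and 2 fell, against 12.9% and 11.4% of all genes. Cav2, a coat protein of caveolae, measured -1.61, -1.75 and -1.75 in wild type and -1.16, -0.98 and -1.21 in SPORTS, a rise of 0.58 ± 0.08 (adjusted p = 0.00499 with limma). Plvap, which forms the diaphragms of leaky capillaries, rose by 0.49 ± 0.11, and the junction scaffold Tjp1 by 0.15 ± 0.03. Cldn3 fell by 0.55 ± 0.10 and Cldn12 by 0.18 ± 0.04, both claudins of tight junctions. The call of Cav2 held whichever array was left out. Tjp1 lost its call without any 1 of the 6 arrays, and its second probe differed by -0.03. The calls of Plvap, Cldn3 and Cldn12 were each lost without wild type 3 and without SPORTS 2. They were also all lost without SPORTS 1, and further without SPORTS 3 (Plvap), wild type 1 (Cldn12) or wild type 2 (Cldn3 and Cldn12). With the slide row as a block Cav2 was called (adjusted p = 0.0426 with limma), and Plvap, Tjp1, Cldn3 and Cldn12 were not (0.114 to 0.200).

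In the list of other barrier transport genes, the median difference was -0.01. Against 12.9% and 11.4% of all genes, 3 of 18 tested genes rose and 0 fell. They included Slc16a1, the carrier of lactate and ketone bodies (0.35 ± 0.04), and the efflux pump Abcc4 (0.40 ± 0.04), whose calls both held whichever array was left out and in the fit blocked by row (adjusted p = 0.0472 and 0.0313 with limma). A second Abcc4 probe, with wild type 3 far above the other arrays, gave -0.15 ± 0.56, and the mean of its probes was not called (adjusted p = 0.778 with limma).

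Of 16 tested genes for Wnt signalling and endothelial transcription factors, 2 rose and 0 fell, against 12.9% and 11.4% of all genes. Nr2f2, a factor of venous identity, measured -0.33, -0.45 and -0.41 in wild type and -0.02, 0.05 and 0.05 in SPORTS, a rise of 0.42 ± 0.05 (1.34-fold; adjusted p = 0.00280 with limma) that was called in all 18 alternatives. Klf4, a factor induced by blood flow, rose by 0.51 ± 0.09, and lost its call without wild type 3 or SPORTS 2 (adjusted p = 0.0563 and 0.0616 with limma). Of 19 tested genes for endothelial signalling, 6 rose and 0 fell. Thbd, the anticoagulant thrombomodulin, rose by 0.79 ± 0.16, Bmp6, a ligand of endothelial BMP receptors, by 0.63 ± 0.08, and Ramp2, a subunit of the adrenomedullin receptor, by 0.36 ± 0.06. Tgfbr2, a TGF-beta receptor (0.36 ± 0.10), its inhibitor Smad7 (0.28 ± 0.07) and the plasminogen activator Plat (0.24 ± 0.05) were the others. The calls of Bmp6 and Ramp2 held whichever array was left out. Tgfbr2 lost its call without any 1 array, and Smad7, Plat and Thbd without wild type 2, wild type 3 or SPORTS 3. Smad7 and Thbd were also lost without SPORTS 1, Smad7 and Plat without SPORTS 2, and Plat without wild type 1. With the slide row as a block Nr2f2 and Bmp6 were called (adjusted p = 0.0324 and 0.0337 with limma), and Klf4, Ramp2, Tgfbr2, Smad7, Plat and Thbd were not (0.0887 to 0.172).

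Among other mural and basement membrane genes, 4 of 31 tested genes rose and 5 fell, against 12.9% and 11.4% of all genes. Those that fell included both subunits of soluble guanylate cyclase, the nitric oxide receptor of smooth muscle. Gucy1a1 measured -1.26, -1.38 and -1.24 in wild type and -1.76, -1.63 and -1.75 in SPORTS, a fall of 0.42 ± 0.06. Gucy1b1 measured 0.82, 0.81 and 0.88 in wild type and 0.55, 0.53 and 0.54 in SPORTS (-0.30 ± 0.04). Both calls held whichever array was left out, and the second Gucy1b1 probe gave 0.08 ± 0.28 and was not called. Neurons also express this cyclase, so in whole brain these values are not those of vessels alone.

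The angiotensin receptor Agtr1a fell by 0.65 ± 0.11 and the actin crosslinker Actn1 by 0.60 ± 0.06. Ppp1r12b, a targeting subunit of myosin phosphatase, rose by 0.53 ± 0.07, Tbx18, a transcription factor of pericytes and smooth muscle, by 0.65 ± 0.17, and Pln, which restrains the calcium pump of smooth muscle, by 0.25 ± 0.05. The calls of Actn1 and Ppp1r12b held in all 18 alternatives. The Agtr1a probe was above background on only 2 of 3 SPORTS arrays. It was tested only through its wild type arrays, where it was higher, so its call gives no independent support for a fall. Over the 17 alternatives in which Agtr1a was tested, 14 gave a call and its difference ran from -0.75 to -0.17. Tbx18 and Pln lost their calls without wild type 2, SPORTS 1 or SPORTS 3, Tbx18 also without wild type 3 or SPORTS 2, and Pln without wild type 1. The last gene that rose, the actin crosslinker Flna (0.19 ± 0.05), is named although it lies outside the naming rule. With the slide row as a block Gucy1a1, Gucy1b1, Actn1 and Ppp1r12b were called (adjusted p 0.00934 to 0.0394 with limma), and Agtr1a, Tbx18, Pln and Flna were not (0.0558 to 0.163). The 2 probes of tropomyosin 1 (Tpm1) went opposite ways. The brighter fell by 0.20 ± 0.04, and the other rose by 0.45 ± 0.04 (adjusted p = 0.00193 with limma). The mean of both was 0.12, and the fall of the brighter was not called without wild type 3 or any 1 of the SPORTS arrays, nor with the row as a block (adjusted p = 0.138 with limma).

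**Figure D4:**
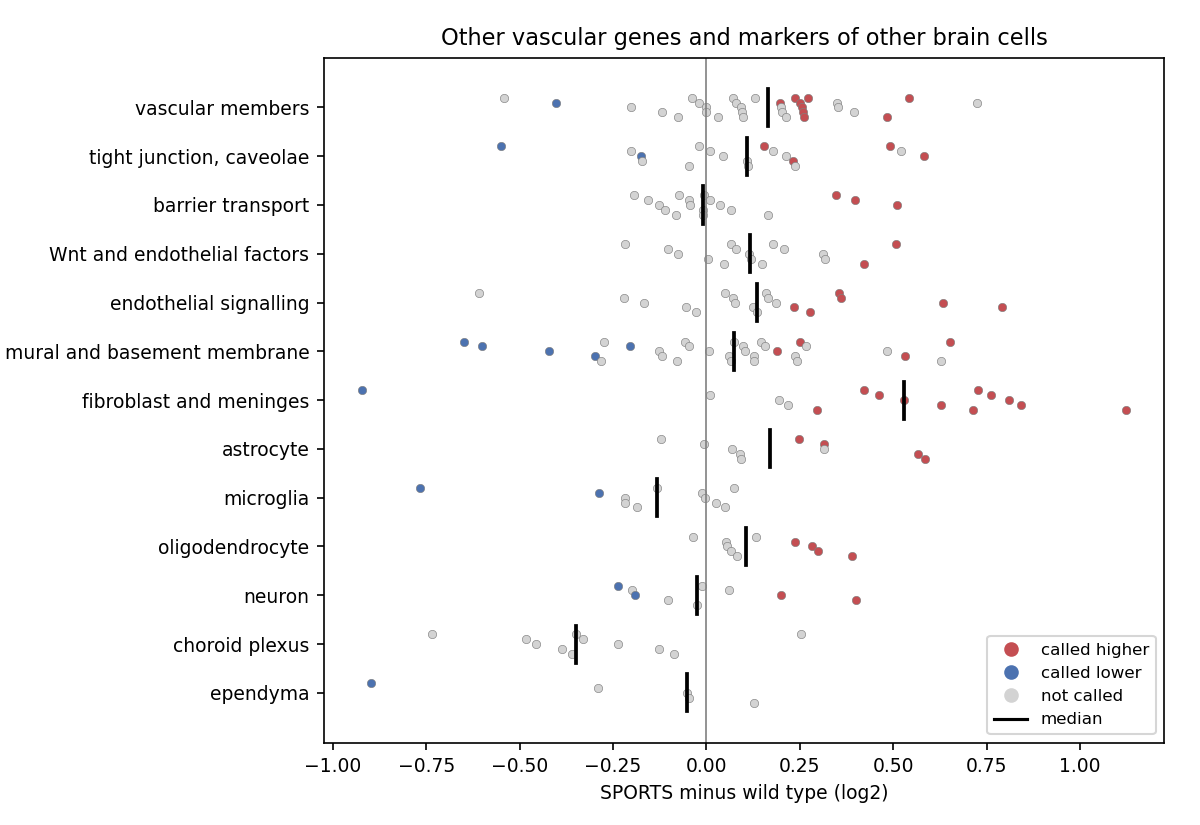
Difference SPORTS minus wild type (log2) of each tested gene, 1 point per gene, for the vascular genes, 5 lists of other vessel wall genes and 7 marker lists of other brain cells; red and blue points were called higher and lower with limma, gray points were not called, and black bars are medians. The median lies at 0.16 for the vascular genes and at 0.53 for fibroblast and meningeal markers, and no choroid plexus gene was called.

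Markers of other cells of the brain were read beside the vascular genes. Of all genes, 12.9% were called higher and 11.4% lower. Of 15 fibroblast and meningeal markers, all tested, 11 were higher and 1 lower in SPORTS, with a median difference of 0.53 (1.44-fold), and their summed linear signal relative to the 75th percentile lay between 19.3 and 22.4 in wild type and between 28.4 and 32.2 in SPORTS. The collagen gene Col1a2 measured 1.84, 1.71 and 1.54 in wild type and 2.54 ± 0.13 (SD, n = 3) in SPORTS, and the growth factor Igf2 rose by 0.53 ± 0.10, a call lost without SPORTS 1 or SPORTS 2. Decorin (Dcn), chosen after its values were seen, rose by 1.12 ± 0.05, while Pdgfra differed by 0.01 ± 0.07 and Ogn fell by 0.92 ± 0.11. Meningeal fibroblasts lie along the larger vessels and also express Pdgfrb and Anpep, and their part in the vascular differences was not tested.

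The counts of the other cell types stand beside the same 12.9% higher and 11.4% lower over all genes. Of 10 tested astrocyte markers 4 were higher and 0 lower (median 0.17, summed signal 178 to 196, against 203 to 211 in SPORTS). Of 10 oligodendrocyte markers 4 were higher and 0 lower (median 0.11, sums 187 to 215 and 203 to 217), and of 11 microglial markers 0 were higher and 2 lower (median -0.13, sums 24.6 to 26.1 and 23.8 to 25.5). Neuronal markers were split, with 2 of 9 higher and 2 lower (median -0.03, sums 66.9 to 70.1 and 68.3 to 69.2). Of 6 erythroid markers 3 were higher and 0 lower (median 0.32, sums 98.4 to 123 and 85.5 to 149). Of 5 ependymal markers 0 were higher and 1 lower (sums 1.35 to 1.51 and 0.911 to 1.26). Of 11 choroid plexus markers 0 were called with limma and 0 had an unadjusted p under 0.05 (median -0.35), and SPORTS 1 had a summed signal of 71.6, where the other arrays had 133 to 151. SPORTS 1 was also the array with the highest Angpt2 and the lowest Rgs5. The part of these cells in the vascular differences was not tested.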

How the data were processed

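Total RNA from the brain of 6 rats was labelled with Cy3 and hybridised to 1 Agilent array each, per the labels' protocols. Per the file headers, the intensity values were made with Agilent Feature Extraction, version 10.10.1.1, which the submitters' processing notes also name. It subtracted background and detrended within each array, with no normalisation between arrays. The deposited table holds the same intensity values each array scaled by its own factor of 1.377 to 1.47, with 0 columns that belong to other samples. How the factors were chosen is not stated in those sources.

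From the deposited intensity values, log2 values were computed, 3075 outlier-flagged spot values were left out, spots of a probe were averaged, and each array's 75th percentile over 58717 non-control spots was subtracted. The percentile was 1530 to 1628 in intensity, each array detected 20325 to 23261 of 30367 probes, with 0 saturated spots. Probes entered the test where the well-above-background flag held for over 0.5 of the spots on every array of 1 group or both. Probes were named by matching transcript accessions to RefSeq genes (GRCr8); their own positions, in the array design's older build, are not given. For genes with several tested probes, the brightest on average stands for the gene. Correlations between arrays over probes were 0.995 to 0.997 within groups and 0.987 to 0.991 between them.

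Groups were compared with limma 3.58.1 in R 4.3.3 (two-sided moderated test, p-values adjusted over the whole table by Benjamini-Hochberg, threshold 0.05). The procedure was run on simulated data with independent noise and no effect of slide row, so that run does not bear on such an effect here. The genes, lists and the promoters shown were chosen with earlier results of these data known. Every vascular gene was named; of the 5 pathway lists, up to 8 called genes with the largest differences were named; of the fibroblast markers, the 2 brightest were named, and of other marker lists none. The values of 2 called pathway genes are left out here. Dcn, Pdgfra, Ogn and Flna were chosen after their values were seen. Tried as well were normexp with an offset of 50, quantile normalisation, a median shift, the deposited table, other detection filters, outlier spots kept, a trended robust variance, the slide row as a block or row 2 alone, the mean of a gene's probes and leaving out each array. A percentile over averaged probes and the mean of centred values were added after seeing the data.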

Additional observations from a re-analysis of the deposited data

How the results depend on the processing

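The 10 calls among vascular genes, and likewise among their probes, were 6 with no filter on dim probes, 4 with the slide row as a block, 2 in slide row 2 alone and 5 to 11 when each array was left out. Over all probes the 4365 calls were 2342, 1596, 1147 and 2298 to 3183 under these settings, and the 26 calls among other vessel wall genes 14, 12, 7 and 15 to 21. The other settings kept these counts within 1.5 times. The contractile median of 0.26 was 0.17 with the block, 0.11 in row 2 alone, where Cnn1 was tested too, and 0.13 to 0.29 without 1 array; the barrier median of 0.09 was 0.049 to 0.17 without 1 array. Barrier minus contractile, -0.27, was -0.10 with normexp, -0.13 as the mean of centred values and -0.31 to -0.19 without 1 array. The share of calls that were higher, 53.1% over all genes, was 43.1% under a median shift. Among the vascular genes, signs turned under these settings only in genes that were not called. With the block, and equally in row 2 alone, values were Cdh5 -0.16, Slco1c1 0.0016, Abcg2 -0.068, Slc7a5 -0.021, Eng 0.011, Pdgfb -0.26, Pdgfrb 0.099, Abcc9 0.11 and Tagln -0.0051. Slco1c1 was 0.0011 with quantile normalisation, 0.022 with normexp and 0.0084 in the deposited table, where Abcc9 was 0.0091; with normexp Ets1 was 0.028 and Pdgfb -0.014. Without 1 array the ranges were Cdh5 -0.064 to 0.22, Slco1a4 -0.082 to 0.013, Slco1c1 -0.050 to 0.049, Slc7a5 -0.013 to 0.20, Eng -0.12 to 0.0067, Pdgfb -0.19 to 0.22, Pdgfrb -0.080 to 0.081, Abcc9 -0.055 to 0.10 and Des -0.017 to 0.19. Of the called genes, Tpm1 turned, to 0.12 in the mean of its probes. The cause was not tested. No paired analysis was made because the labels do not pair the rats of the groups, and a replicate number only names a rat. With 3 rats a group and 1 slide, the block rests on wild type 3 alone, and dim genes such as Ets1, Pdgfb and Agtr1a lie near background.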
